A study of Mus musculus with 75 samples.

Results

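Secreted antiproteases and a lipocalin were followed here as a set of 6 mouse genes: Wfdc17, Wfdc18, Wfdc21, Wfdc2, Slpi and Lcn2. They were taken by name from the 2 gene count tables of a study of blood progenitors lacking the histone methyltransferase Kmt2c. Each table holds all 6, as 6 of its 41388 mouse gene rows. The set was chosen by measured values of these libraries, among them its levels after treatment with interleukin 1 (IL-1) and the low Wfdc2 of untreated Kmt2c-deficient HPC, which are therefore given as descriptions with no test. For differences between populations and for genotype differences in mice without IL-1, the test across all genes is given. Those levels were known too and may have entered the choice, so the p-values place the members among all genes and are no independent support.

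The study sequenced total RNA from blood stem and progenitor populations of 8-week-old mice, in 75 libraries. Mice were wild type (wt), heterozygous (het, Kmt2c f/+ Vav-Cre) or knockout (ko, Kmt2c f/f Vav-Cre). The f denotes the floxed allele of Kmt2c, and the Vav-Cre transgene expresses Cre recombinase in blood cells. The wt label names no Vav-Cre, so that ko against wt and het against wt cannot tell loss of Kmt2c and presence of Cre apart, while ko and het both carry it. In experiment 1, 48 libraries came from untreated mice, with 4 libraries per genotype for HSC (haematopoietic stem cells), HPC (haematopoietic progenitor cells), pGM (read here as pre-granulocyte-monocyte progenitors) and GMP (granulocyte-monocyte progenitors). In experiment 2, 27 libraries came from HSC and HPC of wt and ko mice that received PBS or IL-1 at 0.5 µg per mouse for 3 days. Each HSC group there had 4 libraries, except wt after IL-1 with 3, and each HPC group had 3. In experiment 2 the HSC libraries are labelled HSC throughout except for the entry of the cell type, which reads HPCs, and were treated as HSC. Levels are in CPM, gene counts relative to the library's total of counts with TMM scaling over all libraries of an experiment, and library values are listed in the order of their labelled numbers.

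The WAP domain, named after whey acidic protein, is a small fold held by disulfide bonds, and many proteins built from it block serine proteases outside cells. Slpi is the best known, an inhibitor of the elastase and cathepsin G that neutrophils release. Lcn2, a lipocalin, takes iron away from bacteria by binding their siderophores, is stored in the specific granules of neutrophils, and is induced in many tissues by inflammatory cytokines, IL-1 among them. IL-1 signals through the receptor Il1r1 and its partner Il1rap to NF-kB and, in blood progenitors, favours production of myeloid cells.

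In the GENCODE M21 annotation of GRCm38, 3 members are neighbours on chromosome 11. Wfdc17 lies at chr11:83703991-83706268, Wfdc18 at chr11:83709015-83711348 and Wfdc21 at chr11:83746940-83752642, all on the plus strand, and together they span 48652 bases. Wfdc2 lies at chr2:164562413-164568510 on the plus strand. Slpi, at chr2:164354070-164389095 on the minus strand, overlaps the microRNA gene Mir7678, so that reads of the pair may be shared. Lcn2 lies at chr2:32384633-32388252 on the minus strand. All 6 are protein coding. Wfdc17 and Wfdc18 are 2746 bases apart and are close copies. Their transcripts are identical at 82.5% of 510 aligned bases, with a longest shared run of 30 bases and 0 shared windows of 50 bases. No source used here says how reads that fit both genes were counted, and a part of either gene's count may come from the other.

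The pair moved together across libraries (r = 0.94 in both experiments), and their promoters also align. Of 199 aligned bases in the RefSeq promoters (GRCm38.p6, 250 bases before to 50 after the annotated start), 77.9% were identical. One stretch is shown as an example, plus strand, at chr11:83703920-83703971 for Wfdc17 and chr11:83708949-83709003 for Wfdc18. The 36 bases that match in the alignment, of 52 in Wfdc17 and 55 in Wfdc18, are in capitals.
Wfdc17: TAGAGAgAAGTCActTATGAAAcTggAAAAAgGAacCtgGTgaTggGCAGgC
Wfdc18: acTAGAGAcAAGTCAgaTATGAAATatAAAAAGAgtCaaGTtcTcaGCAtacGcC
Promoters were searched on both strands for the C/EBP motif TTGCNNAA and the NF-kB motif GGANNTTCC, neither of which contains the other. The C/EBP motif, bound by a family of myeloid transcription factors, was found in 10.8% of the 32851 promoters of the table and in Lcn2 and Slpi among the 5 members the table holds (Wfdc21 is not in it). The sites are shown because these genes carry it, 5′ to 3′ on the gene's strand with the motif in capitals, at chr2:32387937-32387966 for Lcn2 and chr2:164356728-164356757 for Slpi, where the match is on the opposite strand.
Lcn2: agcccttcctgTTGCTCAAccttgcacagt
Slpi: gaatttgtaTTGAGCAAtaggttagagttt
The Lcn2 motif begins 216 and the Slpi motif 241 bases before the RefSeq start. Both of these starts lie inside the GENCODE spans given above, and so do both sites. The NF-kB motif was in 4.26% of all promoters and in none of the 5 members, which says only that these letters are not in this window.

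Library totals ran from 13.3 to 20.8 M counts in experiment 1 and from 18.6 to 42.8 M counts in experiment 2 (M for mega). Kmt2c was lower in every ko library than in every wt library of its population and treatment (HSC, for example, 13.3 to 18.3 against 41.9 to 58.9 CPM untreated), except in 1 library of the wt group of HSC after IL-1. That library, labelled HSC wt IL1 replicate 1, had 13.9 CPM, within the 12.6 to 16.8 CPM of HSC ko IL1, against 41.2 and 42.3 CPM in its group. Values of wt HSC after IL-1 are therefore given with and without it. In experiment 1 the libraries numbered 4 stood apart in neutrophil genes, and in other marker sums as well. Summed over 9 neutrophil markers (Camp, Ltf, Ngp, S100a8, S100a9, Mmp8, Retnlg, Cxcr2 and Cd177), those of HSC reached 2511 to 2733 CPM against 9.21 to 108 CPM in the other HSC libraries, in all 3 genotypes. Of the sums named below, they were also higher in monocyte markers (107 to 131 against 4.78 to 33.9 CPM). The same held for granulocyte-monocyte progenitor markers (2045 to 2552 against 720 to 1441 CPM) and for 3 red cell genes (197 to 231 against 28.7 to 90.5 CPM). In the other populations too, library 4 had the highest red cell sum of every group. The sums were 72.7 to 174 against 26.5 to 51.8 CPM in HPC and 42.3 to 60.4 against 19.7 to 35.6 CPM in pGM. In GMP they were 23.7 to 27.7 against 0.738 to 14.2 CPM. Library 4 was also the highest of each HPC group in monocyte markers. No label says that replicates are separate animals, so the spread behind each p-value is that between libraries, part of which may be technical.

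Across the untreated wt populations, the members differed in where they were highest. Wfdc17, known from activated macrophages and microglia, was at 4.83, 6.29, 6.29 and 6.64 CPM in wt HSC and at 366, 460, 282 and 352 CPM in wt HPC. It stood at 74.7, 97.2, 83.4 and 103 CPM in wt pGM and at 2.25, 1.26, 3.05 and 2.24 CPM in wt GMP. The 4 populations did not overlap, and the order ran from HPC through pGM and HSC to GMP. Each step passed the test. Wfdc17 was 61.3-fold higher in HPC than in HSC (log2 fold change 5.94 ± 0.39 SE, n = 4 against 4, edgeR quasi-likelihood test, adjusted p = 7.32e-16), 4.01-fold lower in pGM than in HPC (adjusted p = 1.94e-05) and 2.61-fold lower in GMP than in HSC (adjusted p = 0.00183). As RNA of bulk samples, fewer cells that express a gene and less RNA of it per cell cannot be told apart, here and in the other comparisons.

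Wfdc18, an extracellular proteinase inhibitor first described in mammary gland, had the same order as Wfdc17. It was at 0.641, 1.15, 1.61 and 1.11 CPM in wt HSC, 61.7, 58, 34.2 and 41.1 CPM in wt HPC, 7, 7.19, 3.51 and 4.57 CPM in wt pGM, and 0.161, 0, 0.165 and 0.309 CPM in wt GMP. HPC exceeded HSC 43.5-fold (log2 fold change 5.44 ± 0.39 SE, adjusted p = 8.92e-15), and pGM was 8.63-fold below HPC (adjusted p = 1.13e-08). Both genes thus had their highest level in HPC and nearly none in GMP.

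Wfdc2, better known as the epithelial protein HE4, followed another order, highest in HSC. Its levels were 29.9, 27.7, 23 and 25.6 CPM in wt HSC and 7.59, 7.89, 4.49 and 10.9 CPM in wt HPC. They fell to 0.277, 0.863, 0.113 and 0.457 CPM in wt pGM and to 0.0803, 0, 0 and 0 CPM in wt GMP. HPC was 3.4-fold below HSC (log2 fold change -1.77 ± 0.45 SE, adjusted p = 0.00318) and pGM 17.4-fold below HPC (adjusted p = 8.03e-07). Between pGM and GMP the reads were few, 2 to 15 per wt pGM library and 0 or 1 per wt GMP library, and no fold or test is read from them. The size of the fold between HPC and pGM rests on the same few pGM reads. Wfdc2 entered this fit through its levels in HSC and HPC, so its adjusted p against pGM is not read as support. The HPC and pGM levels listed above did not overlap.

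Slpi ran the other way. Wt HSC held 2.61, 2.83, 2.64 and 17.6 CPM, wt HPC 18.4, 9.65, 12.8 and 14.4 CPM, wt pGM 130, 107, 126 and 147 CPM, and wt GMP 961, 717, 756 and 685 CPM. GMP, pGM and the 2 others formed steps without overlap. Slpi was 9.41-fold higher in pGM than in HPC (log2 fold change 3.23 ± 0.59 SE, adjusted p = 0.000177) and 6.23-fold higher in GMP than in pGM (2.64 ± 0.56 SE, adjusted p = 0.000355). HPC and HSC did not pass (1.12 ± 0.57, adjusted p = 0.164), but did without the libraries numbered 4 (2.34, adjusted p = 4.66e-06). The 17.6 CPM belong to HSC library 4, without which alone the adjusted p was 0.00378.

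Wfdc21, a small secreted protein also called Wdnm1-like, was at 63.7, 58.6, 30 and 36.7 CPM in wt GMP and at 5.27, 4.83, 1.92 and 12 CPM in wt pGM. In wt HSC it was at 0.936, 0.808, 0.269 and 20.3 CPM, and in wt HPC at 0.671, 0.765, 0.345 and 5.94 CPM. Library 4 was thus the highest in each population but GMP. GMP exceeded HPC 25.2-fold (log2 fold change 4.66 ± 1.48 SE, adjusted p = 0.00923) and HSC 8.91-fold (adjusted p = 0.0418). The latter call ended without any 1 of HSC 1, HSC 2, HSC 3, GMP 1, GMP 2 and GMP 4 (adjusted p from 0.0533 to 0.105). GMP against pGM did not pass (3.01 ± 1.35, adjusted p = 0.0905), but passed without the libraries numbered 4 (3.69, adjusted p = 4.18e-05), and pGM then also exceeded HSC (adjusted p = 0.00546) and HPC (adjusted p = 0.0168).

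Lcn2 passed in 0 of the 6 pairs of wt populations with all libraries and no block, by edgeR as by DESeq2. It was at 0.838, 0.866, 6.08 and 191 CPM in wt HSC, 1.14, 1.53, 2.82 and 41.7 CPM in wt HPC, 1.25, 2.93, 2.89 and 44.6 CPM in wt pGM, and 48.2, 45.8, 35.7 and 61.2 CPM in wt GMP. Library 4 of HSC, HPC and pGM reached or passed the GMP level, while the other 9 libraries of these populations lay below it. Without the libraries numbered 4, Lcn2 was higher in GMP than in HSC (4.11 on the log2 scale, adjusted p = 7.74e-05), HPC (4.6, adjusted p = 4.74e-05) and pGM (4.21, adjusted p = 0.000209).

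In counts, 3 of 6 members were called between HPC and HSC, where 22.8% of all 15110 genes tested were called, and 4 between pGM and HSC (41.4% of all genes). Between GMP and HSC, 5 were called (61.2% of all genes), between pGM and HPC 4 (12%), between GMP and HPC 5 (47.9%) and between GMP and pGM 4 (29%), of which 1 is the Wfdc2 with few reads. All 6 passed the filter on low counts, which was set over all untreated libraries, so that Wfdc2 passed through its levels in HSC and HPC. Neither Wfdc2 nor Wfdc18 passed the filter of the GMP fits, nor Wfdc2 that of the pGM fits. Their calls in these populations are counted here, with Wfdc18 at 0 to 0.309 CPM in wt GMP, but are not read as support. The sizes of those differences rest on few reads. In experiment 2, wt HPC and HSC after PBS differed in 4 members (13.8% of all genes). Wfdc17 (6.16 ± 0.38 on the log2 scale, adjusted p = 2.69e-11), Wfdc18 (4.71 ± 0.48, 6.7e-08) and Slpi (4.58 ± 0.77, 0.000107) were higher in HPC. Wfdc2 was higher in HSC (-2.94 ± 0.73, adjusted p = 0.007, or 0.0506 without HPC wt PBS replicate 2). The plot of untreated libraries shows these patterns.

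**Figure D1:**
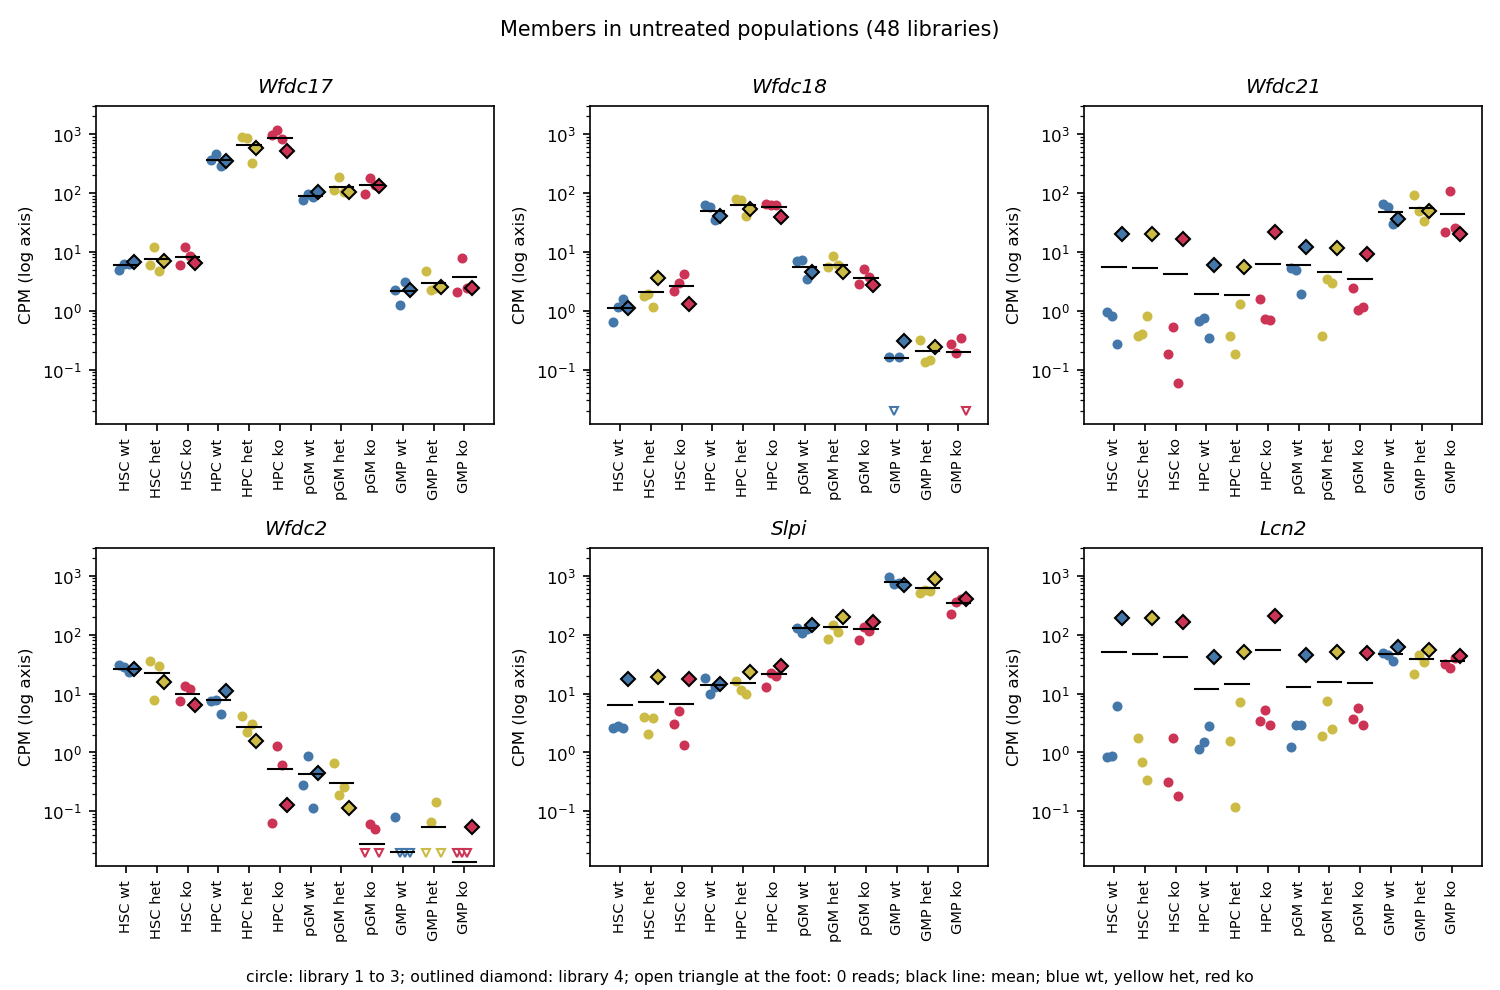
CPM of each member (log axis) in the 48 untreated libraries, by population and genotype (4 libraries per group). Points are libraries, outlined diamonds the libraries numbered 4, open triangles libraries with 0 reads, and black lines group means. Wfdc17 and Wfdc18 peak in HPC, Wfdc2 in HSC and Slpi in GMP, and library 4 stands above the others for Lcn2 in all 12 groups and for Wfdc21 in the 9 groups outside GMP.

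The libraries numbered 4 differed from libraries 1 to 3 in 3 of the members. Outside GMP, library 4 was the highest of its group for Lcn2 in 9 of 9 groups, at 11.7 to 217 times the mean of the other 3 libraries. For Wfdc21 it was the highest in 9 of 9 groups and for Slpi in 8 of 9. It was the highest for Wfdc17 in 2 of 9 and for Wfdc18 and Wfdc2 in 1 of 9 each. The specific granule genes Camp, Ltf and Ngp were highest in the same library in 9 of 9 groups, at a median of 45.7, 63.2 and 83 times the others. Their part in the Lcn2, Wfdc21 and Slpi levels was not tested. The plot of Lcn2 against neutrophil markers shows both for each library.

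**Figure D2:**
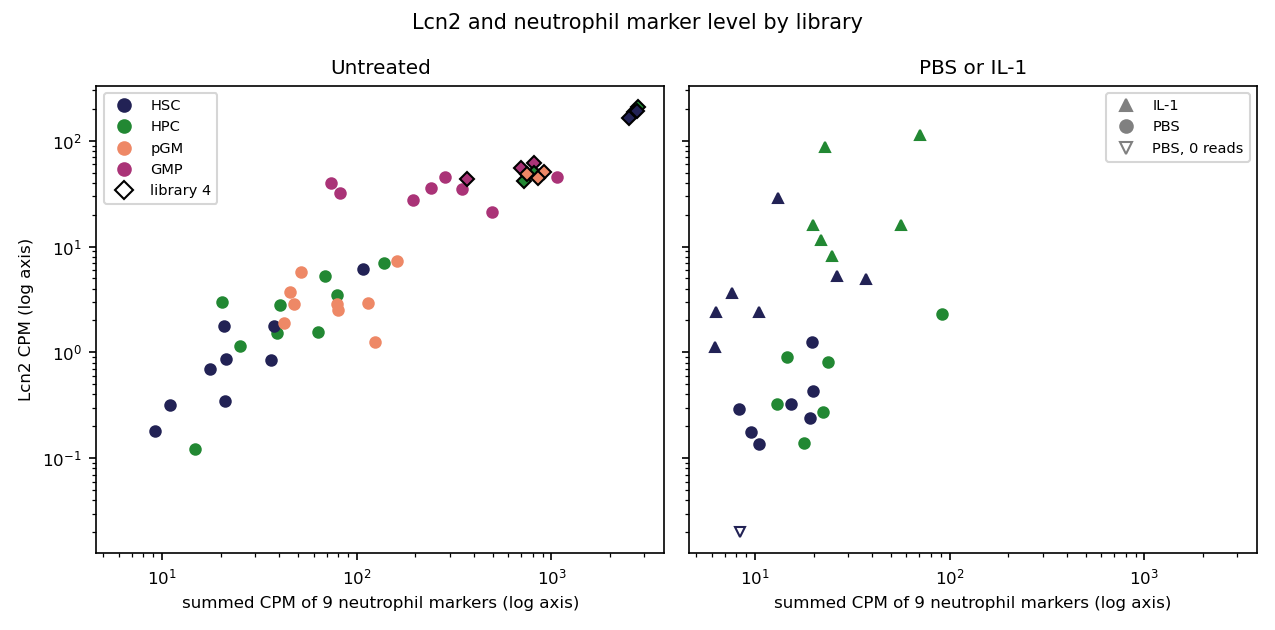
Lcn2 CPM against the summed CPM of 9 neutrophil markers (both log axes), 1 point per library, for untreated mice (left, outlined diamonds are the libraries numbered 4) and for mice given PBS or IL-1 (right, triangles are IL-1). The untreated HSC libraries numbered 4 lie at 2511 to 2733 CPM of markers, while the libraries of the right panel lie at 6.25 to 91.5 CPM on that axis.

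Between ko and wt of untreated mice, 3 members passed the test, each in 1 population, and Wfdc2 also differed in HPC, where it is described with no test. Wfdc2 fell in ko HSC, from 29.9, 27.7, 23 and 25.6 CPM in wt to 7.33, 13.3, 11.8 and 6.44 CPM in ko, without overlap. The fall was 2.74-fold (log2 fold change -1.46 ± 0.36 SE, n = 4 against 4, adjusted p = 0.0478). The het libraries spread over both ranges, at 35.8, 7.73, 29.5 and 15.4 CPM. The summed level of stem cell markers (Procr, Slamf1, Mecom, Hlf and Fgd5) was 913 to 1273 CPM in ko HSC and 948 to 1122 CPM in wt HSC, and that of the epithelial markers Krt8, Krt18 and Epcam was 264 to 348 against 245 to 287 CPM. In this comparison 1 of 6 members was called, against 1.78% of all 13806 genes, and 0 members were higher and 1 lower without overlap (3.77% and 3.69% of all genes). The call rests on a narrow margin: it ended without any 1 of the 8 libraries (adjusted p from 0.0642 to 0.169), with a covariate of Y-linked expression (0.198) and without the libraries numbered 4 (0.276).

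In HPC the same gene went down in steps with the Kmt2c genotype. Wfdc2 was at 7.59, 7.89, 4.49 and 10.9 CPM in wt, 4.21, 2.24, 3.01 and 1.55 CPM in het, and 0.0644, 1.31, 0.619 and 0.128 CPM in ko. None of the 3 genotypes overlapped. As description, ko was 14.1-fold below wt (log2 fold change -3.81 ± 0.61 SE), and the same ko libraries were 5.09-fold below het (-2.35 ± 0.60). Het against wt did not pass (-1.47 ± 0.53, adjusted p = 0.963). In pGM and GMP, Wfdc2 was too low for the genotype fits.

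Wfdc17 rose in ko HPC. The ko libraries held 961, 1167, 834 and 509 CPM and the wt libraries 366, 460, 282 and 352 CPM, so that every ko library was above every wt library. The rise was 2.38-fold (log2 fold change 1.25 ± 0.28 SE, adjusted p = 0.0372). Het HPC held 888, 854, 320 and 572 CPM, which overlaps both, and het against wt did not pass (0.86 ± 0.28, adjusted p = 0.963). Its neighbour Wfdc18 had 64.1, 63, 62.9 and 38.2 CPM in ko and 61.7, 58, 34.2 and 41.1 CPM in wt HPC, which overlap (0.23 ± 0.24, adjusted p = 0.93). Of the 5 members tested in this comparison 1 was called, against 1.1% of all 13276 genes. With Wfdc2 included, 1 of 6 was higher and 1 lower without overlap (2.92% and 4.02% of all genes). The sum of granulocyte-monocyte progenitor markers (Elane, Mpo, Prtn3, Ctsg and Fcgr3) was 3541 to 5091 CPM in ko HPC and 2477 to 2992 CPM in wt HPC. Monocyte markers (Ly6c2, Ccr2, Csf1r, F13a1 and Cx3cr1) were also higher without overlap, at 95.8 to 246 against 51.9 to 77.4 CPM. The part of these cells in the rise was not tested. The Wfdc17 call ended without any 1 library except HPC ko 4 (adjusted p from 0.0666 to 0.147), with the Y-linked covariate (0.105), with no filter (0.075) and without the libraries numbered 4 (0.0787).

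In pGM Wfdc17 was at 94.3, 179, 136 and 131 CPM in ko and 74.7, 97.2, 83.4 and 103 CPM in wt, with 1 ko library inside the wt range (0.60 ± 0.21 on the log2 scale, adjusted p = 0.23). None of the 5 members that passed the filter in pGM was called, by edgeR or DESeq2, where 1.94% of all genes were called and where 1 member had an unadjusted p under 0.05. Without overlap, 0 members were higher and 1 was lower (2.33% and 3.83% of all genes), the unfitted Wfdc2, at 0, 0.0609, 0.0495 and 0 CPM in ko and 0.277, 0.863, 0.113 and 0.457 CPM in wt.

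Slpi fell in ko GMP. It was at 221, 355, 406 and 408 CPM in ko and 961, 717, 756 and 685 CPM in wt GMP, a 2.25-fold fall without overlap (log2 fold change -1.17 ± 0.22 SE, adjusted p = 0.0283). Het GMP held 508, 566, 556 and 877 CPM, every library above every ko library, but ko against het did not pass (-0.85 ± 0.22, adjusted p = 0.454). Slpi was the only 1 of the 4 members in this test that was called, against 0.555% of all 12082 genes, and the only member without overlap (0 higher and 1 lower, against 3.31% and 3.53% of all genes). Of the 4 granule serine proteases tested none was called in GMP. Elane, the neutrophil elastase that Slpi inhibits, was at 41669 ± 8514 CPM in ko and 53476 ± 4440 CPM in wt (SD, n = 4), overlapping (-0.35 ± 0.16, adjusted p = 0.525). Ctsg, its other target cathepsin G, was at 3019 ± 1003 and 3093 ± 322 CPM (-0.03 ± 0.22, adjusted p = 0.979). Summed neutrophil markers were 74.2 to 367 CPM in ko GMP and 241 to 1062 CPM in wt GMP, granulocyte-monocyte progenitor markers 97634 to 129416 against 132386 to 165676 CPM, and macrophage markers (Adgre1, C1qa, C1qb, C1qc, Vcam1, Cd5l and Mrc1) 60.6 to 74.6 against 76.8 to 150 CPM, the last 2 without overlap. Whether these move Slpi was not tested. The call ended without any 1 library except GMP ko 2 (adjusted p from 0.0574 to 0.126), with the Y-linked covariate (0.173), without the libraries numbered 4 (0.0926) and in 1 fit of all libraries (0.39).

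Het against wt called 0 members by edgeR and by DESeq2 in HSC, HPC, pGM and GMP, where it called 0.00724%, 0.00753%, 0.0155% and 0.00828% of all genes. At an unadjusted p under 0.05, edgeR had 2 members in HPC and 1 in pGM. Ko against het, the comparison within Vav-Cre, also called 0 members by edgeR in the 4 populations, against 0.326%, 0.196%, 0.564% and 0.0166% of all genes, with 1 member at an unadjusted p under 0.05 in each population. DESeq2 called 1 there, Wfdc2 in HPC, from which nothing is read because the low level of its ko libraries was known when the set was made. Lcn2, Wfdc21 and Slpi in HSC had wide errors in these fits, in which the libraries numbered 4 stood apart (for Lcn2 in HSC, ko against wt, -0.28 ± 2.52).

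After PBS in experiment 2, Wfdc17 rose in ko HSC, where untreated HSC had shown no call. The ko libraries held 12.6, 8.57, 16.3 and 18.4 CPM and the wt libraries 4.83, 5.77, 3.57 and 5.54 CPM, without overlap. The rise was 2.86-fold (log2 fold change 1.52 ± 0.35 SE, n = 4 against 4, adjusted p = 0.0449). In untreated HSC the 6.06, 12.2, 8.55 and 6.38 CPM of ko overlapped the wt range, and the difference did not pass (0.46 ± 0.31, adjusted p = 0.656). Of the marker sums in HSC after PBS, 4 did not overlap between ko and wt. Macrophage markers were lower in ko, at 6.81 to 15 against 35.7 to 52.8 CPM, as were neutrophil markers, at 8.32 to 10.5 against 15.3 to 19.8 CPM. The sum of granulocyte-monocyte progenitor markers was higher in ko, at 401 to 610 against 311 to 381 CPM. Prtn3 made up most of it, at 398 to 601 against 295 to 375 CPM. Elane went the other way, at 0.294 to 0.944 CPM in ko and 1 to 1.42 CPM in wt. The red cell genes Klf1, Hbb-bt and Hba-a1 were also higher in ko, at 98.5 to 346 against 54.9 to 88.3 CPM. The part of these cells in the Wfdc17 difference was not tested. The call ended without any 1 of the 8 libraries (adjusted p from 0.0546 to 0.154) and with the Y-linked covariate (0.339).

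Wfdc18 and Wfdc2 did not overlap between ko and wt HSC after PBS either, but did not pass. Wfdc18 was at 1.97, 2.59, 2.87 and 5.9 CPM in ko and 0.758, 0.495, 1.42 and 1.2 CPM in wt (1.80 ± 0.49, adjusted p = 0.121, DESeq2 0.0143). Wfdc2 was at 8.07, 8.5, 4.6 and 9.58 CPM in ko and 16.4, 18.3, 25.4 and 28.7 CPM in wt (-1.52 ± 0.38, adjusted p = 0.0693, DESeq2 0.00647), the direction it had in untreated HSC. Called were 1 of the 5 members that passed the filter, against 0.798% of all 16538 genes, and 2 members were higher and 1 lower without overlap, which 2.56% and 3.75% of all genes were. In HPC after PBS, 0 of 6 members were called by edgeR or DESeq2 (0.257% of all 15951 genes), with 1 at an unadjusted p under 0.05. That member was Wfdc2, at 0.838, 0.565 and 0 CPM in ko and 2.7, 2.31 and 3.73 CPM in wt (-2.65 ± 1.03, adjusted p = 0.449), and it was the 1 member lower without overlap, with 0 higher (7.65% and 6.85% of all genes). Wfdc17, called in untreated ko HPC, was at 353, 436 and 517 CPM in ko and 302, 468 and 294 CPM in wt HPC after PBS, which overlap (0.28 ± 0.24, adjusted p = 0.779).

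With IL-1, Lcn2 was higher in every treated library than in every PBS library in both populations and both genotypes. In HPC it went from 2.31, 0.805 and 0.274 CPM after PBS to 113, 11.5 and 15.9 CPM after IL-1 in wt, and from 0.14, 0.327 and 0.911 to 86.5, 8.1 and 16.1 CPM in ko. In HSC the wt libraries went from 0.241, 0.429, 0.322 and 1.24 to 3.6, 4.9 and 5.29 CPM, and the ko libraries from 0.294, 0, 0.176 and 0.135 to 28.6, 1.13, 2.41 and 2.38 CPM. Fitted changes were 5.29 ± 1.4 (wt HPC), 6.27 ± 1.49 (ko HPC), 3.06 ± 0.93 (wt HSC) and 5.83 ± 1.05 (ko HSC) on the log2 scale, ± SE. Library 1 was much the highest in 3 of the 4 IL-1 groups, and the ko HSC value was 4.13 and the ko HPC value 4.26 without the libraries numbered 1. The wt HSC change was 3.21 when replicate 1 of HSC wt IL1 was left out.

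Neutrophil markers moved with Lcn2 in some of these comparisons and not in others. Summed over the 9 markers, wt HSC libraries held 7.61 to 37.2 CPM after IL-1 and 15.3 to 19.8 CPM after PBS. Without replicate 1 of HSC wt IL1, which gave the 7.61 CPM, the IL-1 range was 26.3 to 37.2 CPM, above every PBS library. In ko HSC the sums were 6.25 to 13.1 CPM after IL-1 and 8.32 to 10.5 CPM after PBS, which overlap. In HPC the sums were 21.9 to 70.6 CPM (wt) and 19.8 to 24.8 CPM (ko) after IL-1, and 22.4 to 91.5 and 13 to 17.9 CPM after PBS, without overlap in ko. The markers of the ko HPC sum did not move together. S100a8 (5.59 to 11.9 against 2.64 to 4.39 CPM) and S100a9 (2.73 to 3.83 against 1.13 to 2.71 CPM) were higher after IL-1. Ngp was lower without overlap (0.25 to 0.848 against 1.7 to 2.59 CPM), and the other markers, Camp and Ltf among them, overlapped. In wt HPC, where the sums overlapped, Mmp8 was at 0.757 to 3.81 CPM after IL-1 and at 0 in every PBS library. Cxcr2 was also higher there without overlap (8.88 to 12.2 against 4.45 to 7.49 CPM), and the other markers overlapped. Untreated HSC library 4, by comparison, held 191 CPM of Lcn2 in wt beside 2733 CPM of these markers. In HSC the specific granule gene Camp was at 0 to 1.32 CPM in all libraries of experiment 2, and Ltf at 0 to 1.31 CPM. The wt HPC library with 113 CPM of Lcn2 had the highest sum of its group (70.6 CPM), while the ko HPC library with 86.5 CPM had 23 CPM, between the 2 others. Their part in the Lcn2 levels was not tested.

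Wfdc17 differed most in wt HSC, where the levels went from 4.83, 5.77, 3.57 and 5.54 CPM after PBS to 73.4, 110 and 120 CPM after IL-1. The mean was 20.5 times higher, or 23.3 times without replicate 1 of the IL-1 group, which gave the 73.4 CPM (log2 fold change 4.39 ± 0.39 SE, 4.57 without it). In ko HSC the levels went from 12.6, 8.57, 16.3 and 18.4 to 15.3, 27.7, 54.5 and 54.6 CPM, with 1 treated library inside the PBS range. The mean was 2.73 times higher (1.41 ± 0.34). After IL-1 every ko HSC library was below every wt HSC library (-1.46 ± 0.36, or -1.64 without replicate 1), the reverse of the order after PBS. The ko response was smaller than the wt response by 2.98 ± 0.50 on the log2 scale, or 3.16 without replicate 1.

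Wfdc18, beside it on the chromosome, was also higher in wt HSC after IL-1, going from 0.758, 0.495, 1.42 and 1.2 CPM after PBS to 5.25, 4.64 and 7.94 CPM after IL-1. The mean was 6.13 times higher, or 6.49 times without replicate 1 (log2 fold change 2.62 ± 0.52 SE, 2.70 without it). In ko HSC the 1.97, 2.59, 2.87 and 5.9 CPM after PBS overlapped the 1.61, 1.24, 3.88 and 5.39 CPM after IL-1 (-0.19 ± 0.47). The ko response was smaller by 2.81 ± 0.70 on the log2 scale, or 2.89 without replicate 1. Both genes of the pair thus started higher in ko HSC after PBS and ended lower, or overlapping, after IL-1.

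In HPC the pair moved the other way or not at all. Wfdc17 was at 302, 468 and 294 CPM after PBS and 367, 309 and 215 CPM after IL-1 in wt, which overlap, and at 353, 436 and 517 against 222, 303 and 233 CPM in ko, which do not (-0.79 ± 0.24). Wfdc18 was at 25.8, 35.1 and 16.6 CPM after PBS and 16, 13.5 and 10.5 CPM after IL-1 in wt, lower without overlap (-0.98 ± 0.34). In ko it was at 21.8, 32 and 19.5 against 9.84, 20.4 and 10.1 CPM, with 1 library inside the PBS range (-0.87 ± 0.34). Libraries of equal number deviated together in this comparison, and within the 3 such pairs Wfdc18 was lower after IL-1 in 3 of 3. After IL-1 the wt HSC level of Wfdc17 (101 CPM on average) therefore came nearer to that of wt HPC (297 CPM) than after PBS (4.93 against 355 CPM).

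Wfdc21 was higher after IL-1 in HPC. The wt libraries went from 0.467, 0.105 and 0.0684 CPM to 5.57, 0.987 and 2.25 CPM (3.67 ± 0.97 on the log2 scale), and the ko libraries from 0.587, 0 and 0.24 to 1.67, 1.03 and 1.22 CPM (2.22 ± 0.92). Neither pair of groups overlapped. In HSC it was at 0 to 0.722 CPM in all libraries, too few reads for a fit.

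Wfdc2 and Slpi overlapped between IL-1 and PBS in both populations and genotypes. Wfdc2 in wt HSC was at 16.4, 18.3, 25.4 and 28.7 CPM after PBS and 4.38, 22.1 and 18.2 CPM after IL-1 (-0.55 ± 0.40, or -0.11 without replicate 1, which gave the 4.38 CPM). In ko HSC it was at 8.07, 8.5, 4.6 and 9.58 against 5.29, 5.84, 4.98 and 7.56 CPM. The 4.38 CPM of the library labelled HSC wt IL1 replicate 1 thus lay below every ko HSC library after IL-1. In HPC, Wfdc2 was at 2.7, 2.31 and 3.73 against 4.57, 1.09 and 1.8 CPM in wt (-0.26 ± 0.94). The ko libraries held 0.838, 0.565 and 0 against 2.7, 0.563 and 0.155 CPM (1.26 ± 1.01), a change whose sign turned to -0.39 without HPC ko IL1 replicate 1.

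Slpi in HPC was at 6.49, 6.23 and 5.99 CPM after PBS and 12.4, 3.65 and 3.56 CPM after IL-1 in wt (0.03 ± 0.50), and at 2.32, 7.76 and 5.59 against 5.03, 2.1 and 3.55 CPM in ko (-0.57 ± 0.51). In HSC it stayed at 0 to 1.08 CPM. There the wt groups overlapped (1.24 ± 1.01) but no longer did without replicate 1 of the IL-1 group (1.69), with 0.8 CPM on average against 0.255 CPM.

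By counts, 3 of 6 members were higher after IL-1 than after PBS without overlap in wt HSC, as were 4.66% of all genes, and 1 in ko HSC (2.84% of all genes). None was lower without overlap in HSC (4.83% of all genes in wt and 1.75% in ko). In HPC 2 were higher in wt (7.27%) and 2 in ko (6.63%), and 1 was lower in wt (6.89%) and 1 in ko (6.86%). These counts describe genes chosen for their response. Lcn2, Wfdc17, Wfdc18 and Wfdc21 each were higher after IL-1 without overlap in at least 1 population. Wfdc2 and Slpi were so in none with all libraries, and Slpi was so in wt HSC without replicate 1 of HSC wt IL1. After IL-1, ko and wt HSC did not overlap in 1 member, Wfdc17, lower in ko (3.71% of all genes were lower and 5.2% higher). Without replicate 1 of HSC wt IL1, Wfdc2 did not overlap either, at 4.98 to 7.56 CPM in ko against 22.1 and 18.2 CPM in wt. Lcn2 between ko and wt HSC after IL-1 was 0.87 ± 0.87 and turned to -1.42 without the libraries numbered 1. In HPC after IL-1 all 6 members overlapped between ko and wt (3.89% of all genes were higher and 5.87% lower without overlap). There too equal numbers deviated together, and Wfdc2 and Slpi were lower in ko in 3 of 3 pairs, by as little as 3.55 against 3.56 CPM for Slpi in pair 3. The plots of levels and of changes with IL-1 show both.

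**Figure D3:**
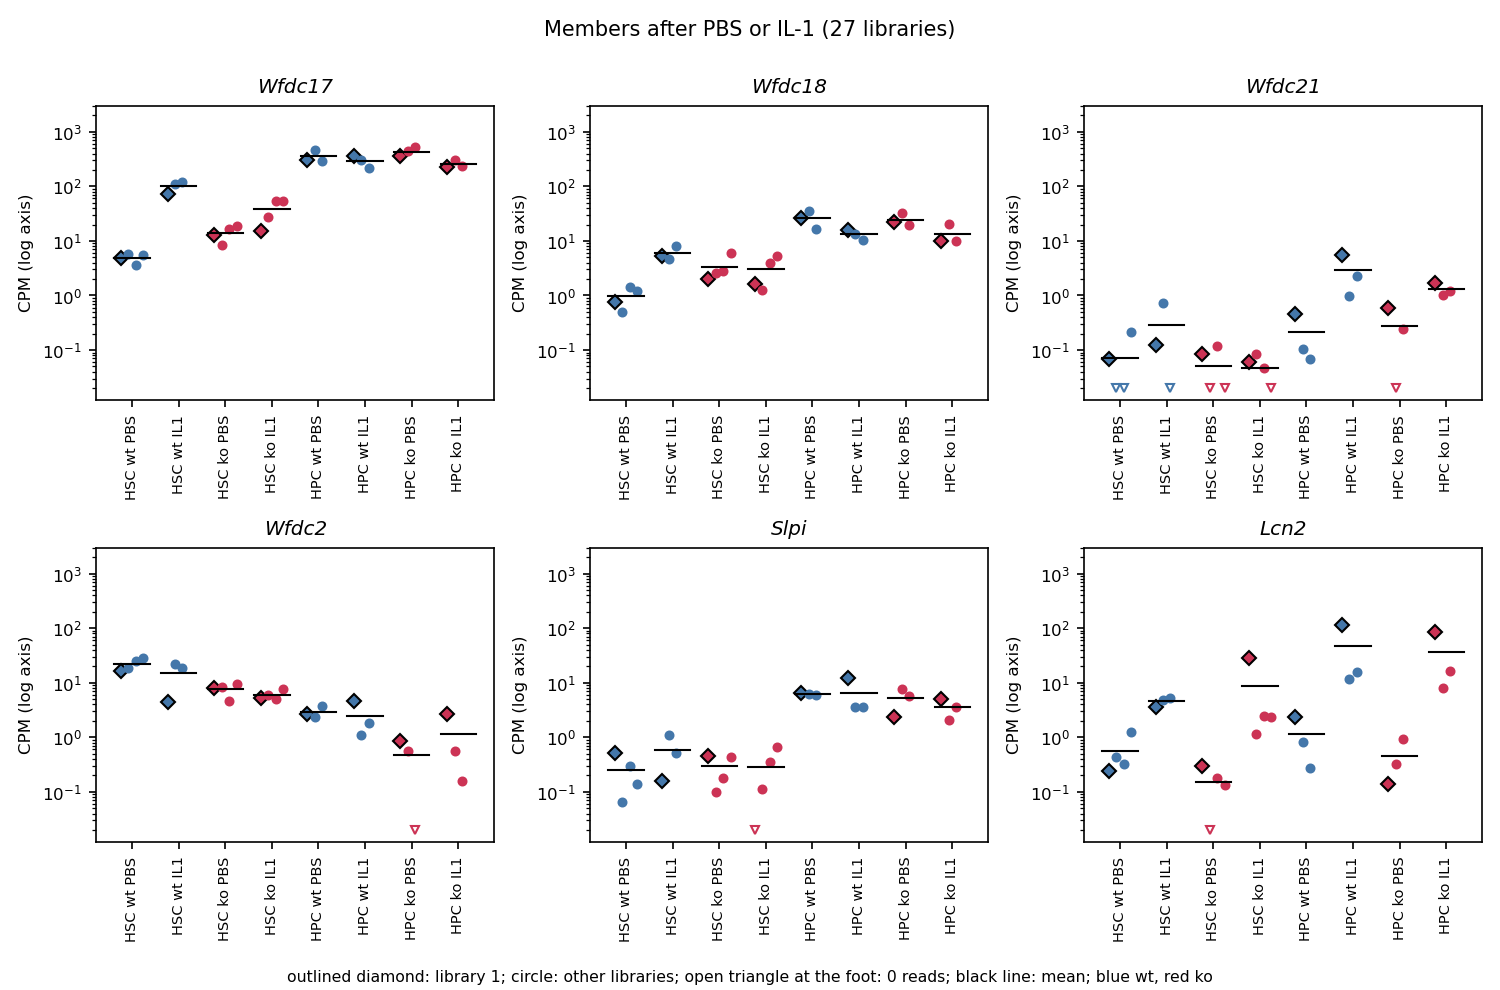
CPM of each member (log axis) in the 27 libraries of mice given PBS or IL-1, by population, genotype and treatment (3 or 4 libraries per group). Points are libraries, outlined diamonds the libraries numbered 1, open triangles libraries with 0 reads, and black lines group means. Lcn2 is higher after IL-1 in all 4 pairs of groups, Wfdc17 goes from 4.93 to 101 CPM on average in wt HSC, and Wfdc2 and Slpi overlap.

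**Figure D4:**
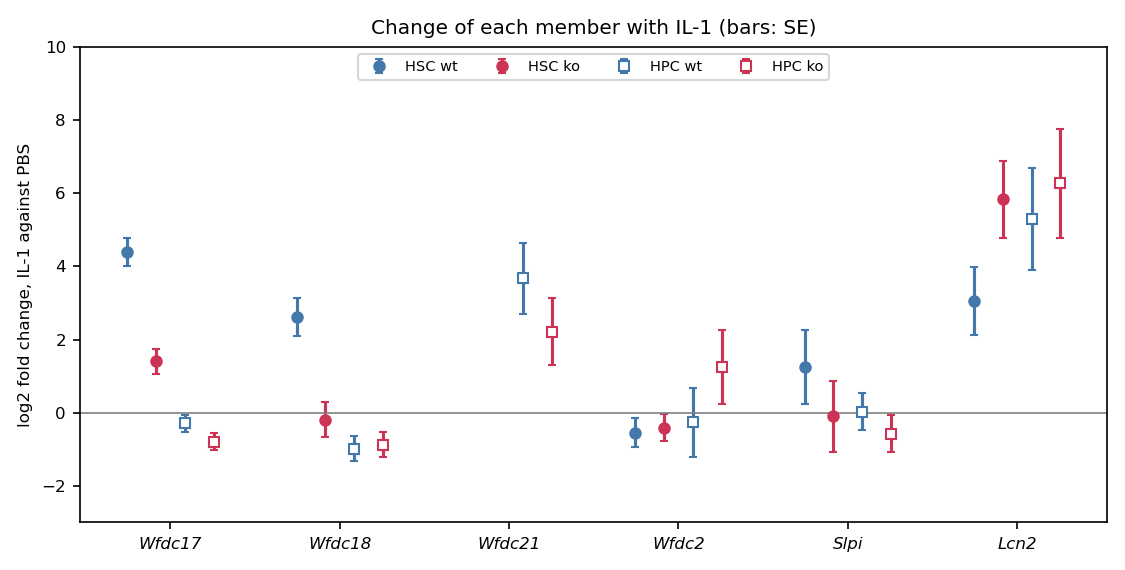
Change with IL-1 against PBS (log2 fold change, error bars ± SE) of the members that could be fitted, for HSC (filled circles) and HPC (open squares) of wt (blue) and ko (red) mice. Wfdc17 in HSC lies at 4.39 in wt and 1.41 in ko, and Wfdc18 in HSC at 2.62 in wt and -0.19 in ko.

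Markers of other cell types also differed between IL-1 and PBS libraries. The summed red cell genes Klf1, Hbb-bt and Hba-a1 were at 494 to 579 CPM in wt HSC after IL-1 against 54.9 to 88.3 CPM after PBS, the widest gap among the marker sums of wt HSC, where Wfdc17 and Wfdc18 were higher. In ko HSC they were at 314 to 500 against 98.5 to 346 CPM, which overlap. In HPC they were at 139 to 273 against 39.2 to 47.7 CPM in wt and 94.6 to 139 against 24.9 to 51.2 CPM in ko. The sum of granulocyte-monocyte progenitor markers was also higher in wt HSC, at 534 to 685 against 311 to 381 CPM, and overlapped in the 3 other pairs of groups. In wt HSC, Prtn3 made up most of it, at 531 to 677 against 295 to 375 CPM. There Elane was at 1.4 to 2.19 against 1 to 1.42 CPM, and Ctsg at 0 to 0.345 against 0 to 0.706 CPM. Without replicate 1 of HSC wt IL1, Elane was at 2.13 to 2.19 CPM after IL-1, above every PBS library, and Ctsg still overlapped.

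Stem cell markers were lower in HPC after IL-1, at 150 to 218 against 266 to 404 CPM in wt and 165 to 197 against 247 to 288 CPM in ko. Epithelial markers were lower in ko HPC, at 44.2 to 63.4 against 71.1 to 93.8 CPM. Monocyte markers were at 214 to 246 CPM in wt HPC after IL-1 against 59.6 to 86 CPM after PBS, and overlapped in ko HPC, at 216 to 407 against 135 to 226 CPM. In HSC the monocyte sum stayed at 0.645 to 6.17 CPM. Macrophage markers in wt HSC were at 7.39 to 40.6 CPM after IL-1, or 30.3 to 40.6 CPM without replicate 1, and 35.7 to 52.8 CPM after PBS. The sum of multipotent progenitor markers (Cd48, Flt3 and Cd34) overlapped between IL-1 and PBS in all 4 pairs of groups, as in wt HSC, at 448 to 819 against 388 to 565 CPM. The part of these cells in the IL-1 changes was not tested.

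The remaining genotype values of the members overlapped, except Wfdc2 between ko and het pGM. It was at 0 to 0.0609 CPM in ko and 0.115 to 0.663 CPM in het, too low for the fit. Lcn2 in GMP was at 31.8, 27.6, 39.6 and 43.4 CPM in ko and at 48.2, 45.8, 35.7 and 61.2 CPM in wt (-0.42 ± 0.25, adjusted p = 0.662). Wfdc21 in GMP was at 21.8, 109, 25.5 and 19.8 CPM in ko, where library 2 stood apart, and the difference from wt did not pass (-0.09 ± 0.52, adjusted p = 0.972). Wfdc18 in untreated HSC was at 2.13, 2.96, 4.13 and 1.29 CPM in ko and 0.641, 1.15, 1.61 and 1.11 CPM in wt, with 1 ko library inside the wt range (1.21 ± 0.47, adjusted p = 0.333).

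Genes that act with the members were followed as lists. With IL-1, the test called 0.2% of all genes in wt HSC, 0.212% in ko HSC, 0.947% in wt HPC and 0.433% in ko HPC. Slpi blocks serine proteases, and the 4 granule proteases Elane, Prtn3, Ctsg and Prss57 were all higher in wt GMP than in wt pGM (4 of 4, median log2 change 2.54 against -0.11 over all genes), the step at which Slpi also rose. In ko HPC 1 of 4 was called, Prtn3 (0.89 ± 0.15, 1165 ± 112 against 629 ± 59.6 CPM, SD, n = 4, adjusted p = 0.00559), though not without the libraries numbered 4. No granule protease was called with IL-1. Of 18 further WFDC and WAP genes, 1 to 3 passed the filter per genotype or IL-1 comparison and none was called. Of 20 other protease inhibitors, 11 were tested in ko against wt HSC, and 1 was higher and 1 lower. Serpinb1a, an intracellular inhibitor of neutrophil proteases, was the lower one in ko HSC (-1.71 ± 0.21, 61.2 ± 24.8 against 199 ± 18.3 CPM, adjusted p = 0.000196). It was also lower in ko HSC after PBS (-1.48 ± 0.25, adjusted p = 0.00873), where Wfdc17 was higher. With IL-1, 1 of 12 tested inhibitors was called in wt HPC, Serpina3f (1.36 ± 0.26, 22.5 ± 1.14 against 8.62 ± 1.04 CPM, SD, n = 3, adjusted p = 0.0204).

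The IL-1 receptor gene Il1r1 differed between the populations. It was at 68.7 ± 24.1 CPM in wt HPC and 6.64 ± 2.24 CPM in wt HSC after PBS (3.36 ± 0.36, adjusted p = 1.57e-07). Of the 22 genes of the IL-1 receptor pathway, none was called with IL-1 in any of the 4 comparisons. In untreated mice Il1r1 was lower in ko than in wt in HSC (2.15 ± 0.533 against 7.2 ± 0.187 CPM, SD, n = 4, -1.75 ± 0.28 on the log2 scale, adjusted p = 0.00192), HPC (-0.83 ± 0.16, adjusted p = 0.0139) and pGM (-1.66 ± 0.20, adjusted p = 0.000159). Without the libraries numbered 4 the HSC and HPC calls ended. In HSC after PBS, Il1r1 was at 1.53 to 4.1 CPM in ko and 4.13 to 9.45 CPM in wt, without overlap, and did not pass (-1.10 ± 0.37, adjusted p = 0.243). After IL-1 it was at 7.3 to 11.9 CPM in ko and 6.27 to 24.4 CPM in wt HSC, which overlap, or 16.1 to 24.4 CPM in wt without replicate 1, which do not. Among 4 partners of lipocalin 2, the siderophore enzyme gene Bdh2 was lower in wt HPC than in wt HSC (-1.15 ± 0.24, adjusted p = 0.000257) and none was called with IL-1. Of the 8 specific granule genes, which are stored with Lcn2 in neutrophils, none was called with IL-1 either, with medians from -0.25 to 0.76 on the log2 scale against -0.01 to 0.03 over all genes.

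Across the 48 and the 27 libraries, genes were ranked by the smaller of their correlations (Pearson's r of log2 CPM) with each member in the 2 experiments, among about 11153 genes. The points share populations and libraries, so r describes the pattern over groups. For Wfdc17 the most alike was Wfdc18 (r = 0.94 in both experiments), followed by Dntt (0.92) and Satb1 (0.90). For Wfdc18, Wfdc17 was followed by Ltc4s (0.90) and Gimap7 (0.89). Wfdc2 was most like Gp9 (0.89), Chad (0.88) and Lst1 (0.87), and Slpi like Anxa3 (0.91), Ifi209 (0.91) and Gas7 (0.90). Wfdc21 was nearest to Mrgpra2b (0.82), C3 (0.80) and Trem3 (0.80). Lcn2 had the least close match, Ifitm6 (0.61), before Ms4a3 (0.60) and Igsf6 (0.60). Apart from Wfdc17 with Wfdc18, no pair of members was among each other's 3 closest genes. Slpi and Wfdc2, for example, had r = -0.88 in untreated libraries, and Wfdc17 and Slpi -0.27 untreated but 0.86 in the experiment with only HSC and HPC.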

How the data were processed

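Gene counts came from 75 RNA-seq libraries in 2 tables. Per the submitters' processing notes, the deposited counts rest on STAR (version 3.0.4 as written there) and featureCounts 1.4.5 of the Subread package. No source used here gives the genome build or the strand setting. Gene IDs were named from GENCODE M21, which matched 40254 of 41388 rows. In experiment 1, 3 rows that are no mouse genes were left out.

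Counts as deposited were tested with edgeR 4.0.16 (R 4.3.3) by its quasi-likelihood test, with filterByExpr (minimum count 10, minimum total 15), TMM scaling, 1 fit per population and experiment for genotype and IL-1 comparisons and, for populations, 1 fit of all 48 libraries of experiment 1 and 1 of all 27 of experiment 2. P-values were adjusted by Benjamini-Hochberg over all genes of a fit, and called means an adjusted p under 0.05. Alternatives were DESeq2 1.42.0, RLE scaling, no filter, the replicate number as a block, a covariate of summed Y-linked expression, other sets of fitted libraries and each library left out. Those without the libraries numbered 4 (experiment 1) or 1 (experiment 2) were added after the data were seen. The fits were tested on simulated counts.

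Members and lists were chosen with earlier results of these data known. Named were all 6 members, the 3 protein-coding genes most like each (log2 CPM with prior count 2, mean of at least 1 CPM), Kmt2c, and from each list at most the 4 genes with the smallest p in a comparison plus Il1r1, Il1rap, Elane, Prtn3, Ctsg, Camp, Ltf and Ngp. Protein sequences, planned for the members, were not used here. Replicate numbers were checked for pairing by correlating deviations from group means. All pairs exceeded 0.1 only for IL-1 against PBS in ko HPC (0.112 to 0.187) and ko against wt HPC after IL-1 (0.215 to 0.421), which carry no test here and are also described by pairs, and the numbers were not used to pair other samples. Some genes and 1 sum of the marker lists are not reported here, and the red cell sum was made from 3 genes of its list after the data were seen.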

Additional observations from a re-analysis of the deposited data

Results flagged for a closer look

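Of 90 groups of 4 libraries checked, 25 had 1 library whose gap to the nearest other exceeded the critical share of the group's range, where chance gives about 1 in 20 groups. The library was higher than its group in 24 and was a library numbered 4 of experiment 1 in 19. For Lcn2, library 4 stood apart in HSC of wt (191 CPM), het (188 CPM) and ko (165 CPM), in HPC of wt (41.7 CPM), het (50 CPM) and ko (207 CPM), and in pGM of wt (44.6 CPM), het (50.1 CPM) and ko (48.3 CPM). For Wfdc21 it stood apart in HSC of wt (20.3 CPM), het (20 CPM) and ko (16.2 CPM) and in HPC of wt (5.94 CPM) and ko (21.6 CPM), and for Slpi in HSC of wt (17.6 CPM) and het (19.1 CPM) and in GMP of het (877 CPM). Wfdc18 in HPC ko was the 1 low value (38.2 CPM, library 4).

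Other single libraries stood high in their groups. They were library 2 of GMP ko for Wfdc17 (7.95 CPM) and Wfdc21 (109 CPM), library 1 of GMP het (4.74 CPM) and library 2 of pGM het (188 CPM) for Wfdc17, and library 1 of HSC ko after IL-1 for Lcn2 (28.6 CPM). Wfdc2 was at 0 in wt GMP except for library 1 (0.0803 CPM) and in ko GMP except for library 4 (0.0552 CPM), each value a single read.

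After IL-1, Wfdc18 was higher than after PBS in every wt HSC library (2.62 on the log2 scale) and lower in every wt HPC library (-0.98). This difference between populations was not tested.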

How the results depend on the processing

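Counts of called members moved with the fit, as did those of all genes. In untreated HSC, ko against wt called 79 genes higher and 167 lower in the main fit. It called 56 and 134 with the Y-linked covariate, and 17 and 69 without the libraries numbered 4. Ko against wt called 0 members in HSC with no filter, with the Y-linked covariate, without the libraries numbered 4 and in 1 fit of all libraries. Of all genes, it called 75 higher and 164 lower in HSC with no filter, and 37 and 163 in 1 fit. It called 0 members in HPC with the first 3 of these, and 0 in GMP with the last 3. Of all genes in HPC, 33 were higher and 113 lower in the main fit. They were 32 and 107 with no filter, 9 and 28 with the covariate, and 9 and 32 without the libraries numbered 4. In GMP they were 24 and 43 in the main fit and 2 and 11 with the covariate. They were 0 and 3 there without the libraries numbered 4, and 134 and 63 in 1 fit. Ko against het in HPC called 1 member by DESeq2 and in 1 fit, the Wfdc2 that is read as description. Of all genes, DESeq2 called 24 higher and 77 lower there, and the 1 fit 12 and 34. Ko against wt in pGM called 1 member in 1 fit, Wfdc2, beside 32 of all genes higher and 151 lower. Wfdc2 had not passed the filter of the pGM fit and entered the 1 fit through its levels in HSC and HPC. In pGM it was at 0 to 0.0609 CPM in ko and 0.113 to 0.863 CPM in wt, and nothing is read from this call. Ko against wt HSC after PBS called 3 members by DESeq2 and with no filter, 2 in 1 fit and 0 with the Y-linked covariate. Of all genes, 39 were higher and 93 lower there in the main fit, and 158 and 217 by DESeq2. The numbers were 87 and 159 with no filter, 31 and 105 in 1 fit and 12 and 47 with the covariate. With the replicate number as a block, the counts of members were 0 in HSC, 0 in GMP, 1 in pGM (Wfdc17) and 3 in HSC after PBS. Of all genes, 74 were then higher and 157 lower in HSC, and 14 and 29 in GMP. In pGM they were 61 and 199, and in HSC after PBS 49 and 113. The correlations over all genes did not show the replicate number to pair these samples. They may miss what equal numbers share in few genes, such as Lcn2, highest in library 4 in 12 of 12 untreated groups. Between wt populations the block added calls of Lcn2 in GMP against HSC (adjusted p = 0.00799), HPC (0.00145) and pGM (0.00424), of Wfdc21 in GMP against pGM (0.00231) and of Slpi in HPC against HSC (0.0129), and ended none. Own-number libraries correlated best in 4 of 4 only for pGM against HSC among these pairs.

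With 1 library left out at a time, members called ranged from 0 to 0 in HSC and in HSC after PBS, and from 0 to 1 in HPC, in GMP and in ko against het HPC. The log2 change of Lcn2 with IL-1 then ranged from 2.81 to 3.78 (wt HSC), 3.68 to 6.27 (ko HSC), 3.57 to 6.38 (wt HPC) and 4.68 to 7.29 (ko HPC), and without the libraries numbered 1 it was 4.13 in ko HSC and 4.26 in ko HPC. The Wfdc2 change ranged from -0.39 to 2.04 in ko HPC, and its ko minus wt response in HPC from -0.13 to 2.28, both negative only without HPC ko IL1 replicate 1. The cause was not tested. Members below about 1 CPM rest on few reads, such as 17 Lcn2 counts in ko HSC after PBS, and their changes are imprecise.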
